A study of Rattus norvegicus with 12 samples.

Results

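The mesenchymal transcription factor genes Snai1, Snai2, Zeb1, Zeb2, Twist1, Twist2 and Prrx1 were followed across 12 rat RNA-seq libraries of cultured retinal Müller cells. They were chosen by name as the best known DNA-binding regulators of the mesenchymal state. All 7 of 7 were among the 17315 genes in the deposited count files, and all 7 passed the filter on low counts that left 11321 genes to be tested. SIRMu-1 is an established rat Müller cell line, and its 5 libraries came from Sprague-Dawley rats of postnatal day 2 to 4, at passages 6, 11, 11, 11 and 20 for replicates 1 to 5. rMC-1 is a rat Müller line transformed with the SV40 large T antigen, and its 3 libraries came from adult Sprague-Dawley tissue at passages 23, 26 and 26. Primary MC denotes primary Müller cell cultures, with 4 libraries from Sprague-Dawley rats of postnatal day 2 to 4 at passages 4, 4, 3 and 3. Every culture had MEM with 25 mM glucose and 2 mM glutamine. Serum was 20% for SIRMu-1 and Primary MC and 10% for rMC-1. The antibiotic gentamicin (87 mg/L) and the antifungal amphotericin B (2.2 mg/L) were present in SIRMu-1 replicates 3 and 5 and in all 4 primary cultures, and absent from the other SIRMu-1 cultures and from rMC-1. Each line is 1 line, so its libraries measure the spread between cultures of that line. Serum, age, passage and drugs differ between rMC-1 and Primary MC together with the cell type, and their parts cannot be told apart. Passage likewise differs without overlap between SIRMu-1 and Primary MC, and serum, age and passage differ between SIRMu-1 and rMC-1. Those parts cannot be told apart from the cell type either. Drugs differ from Primary MC in SIRMu-1 replicates 1, 2 and 4, and from rMC-1 in SIRMu-1 replicates 3 and 5.

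These genes encode the core regulators of epithelial-mesenchymal transition. Snail proteins (Snai1, Snai2) and ZEB proteins (Zeb1, Zeb2) are zinc-finger repressors that bind E-box sequences, the short motif CANNTG and above all CACCTG and its reverse complement CAGGTG, in the promoters of epithelial genes such as E-cadherin. Twist1 and Twist2 are basic helix-loop-helix factors that pair with E proteins, and Prrx1 is a paired-related homeodomain factor of limb, craniofacial and connective tissue mesenchyme. Müller glia are the radial glia that span the retina, and in culture they are known to lose glial genes and to take on features of mesenchymal cells.

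Levels are given as CPM, the depth-scaled count of a gene relative to all reads in genes, after trimmed-mean scaling (TMM) between libraries. They are comparable between libraries for 1 gene but not between genes, because gene lengths were not applied. Reads in genes were between 26349346 and 36730443 in SIRMu-1, between 27351014 and 38125630 in rMC-1, and between 22582345 and 29812705 in Primary MC. Several defining markers of the labelled cell type were absent or near 0. Of 8 defining Müller genes, 4 averaged under 1 CPM in SIRMu-1, 4 in rMC-1 and 3 in Primary MC. Aqp4, the glial water channel, was at 0 in SIRMu-1 and rMC-1 and had 2 reads in all primary libraries together. Rlbp1 and Kcnj10 averaged under 1 CPM in every group. Sox2 was at 0 in SIRMu-1 and averaged 14.9 CPM in rMC-1 and 2.49 CPM in Primary MC. Sox9 had 4 reads in rMC-1 and averaged 71.6 CPM in SIRMu-1 and 52.2 CPM in Primary MC. Other defining genes were present, with Glul at 56.8, 54.8 and 143 CPM in SIRMu-1, rMC-1 and Primary MC. In the same order, Slc1a3 averaged 23, 55.3 and 34.2 CPM and Vim 3540, 1370 and 6210 CPM. The mesenchymal collagen gene Col1a1 averaged 36700 CPM in SIRMu-1, 3210 CPM in rMC-1 and 56500 CPM in Primary MC. The Col1a2 entry had 1.84, 0.107 and 1.67 CPM in the same order. The annotation behind the counts is not given, so whether that entry counts the gene in full could not be checked. Lum, Dcn and Thy1 averaged 3.3, 4.54 and 0.0287 CPM in SIRMu-1 and 11.1, 0.782 and 0.228 CPM in rMC-1. In Primary MC they averaged 162, 681 and 566 CPM. Of 8 fibroblast and mesenchyme genes, 1 averaged under 1 CPM in SIRMu-1, 4 in rMC-1, the Col1a2 entry among them, and 0 in Primary MC. Sums over marker lists of other cell types rested on few genes. The summed CPM of 14 pericyte and smooth muscle genes was 7080 to 16800 in SIRMu-1, 1510 to 3730 in rMC-1 and 10200 to 15600 in Primary MC. Most of it came from Acta2 (means of 7610, 1680 and 5860 CPM) and Tagln (4630, 606 and 3870 CPM). In the same order, Pdgfrb averaged 998, 86.6 and 1490 CPM and Cspg4 294, 0.239 and 85.1 CPM. Rgs5 averaged 0.0865, 0.019 and 5.18 CPM, and Kcnj8 was at 0 in both lines. For 15 endothelial genes the summed CPM was 192 to 469 in SIRMu-1, 11.2 to 17.7 in rMC-1 and 21.6 to 69.4 in Primary MC. Cldn5 and Sox17 were at 0 in all 12 libraries, and Flt1 alone averaged 292 CPM in SIRMu-1, 4.4 CPM in rMC-1 and 16.7 CPM in Primary MC. That of 16 microglial and macrophage genes was 170 to 223 in SIRMu-1, 2.74 to 4.36 in rMC-1 and 222 to 452 in Primary MC, with 7 of the 16, Aif1, Cx3cr1 and P2ry12 among them, at 0 in both lines. Most of that sum in SIRMu-1 and Primary MC was Tmem119, which averaged 184 CPM in SIRMu-1, 0.163 CPM in rMC-1 and 308 CPM in Primary MC. Their part in the results was not tested. In these bulk cultures, fewer cells of a type and less RNA per cell cannot be told apart. The summed CPM of 19 mitotic genes was 338 to 1960 in SIRMu-1, 4770 to 5140 in rMC-1 and 92 to 146 in Primary MC. All 19 were higher in each line than in Primary MC, and 18 were lower in SIRMu-1 than in rMC-1. Of all genes, 21.7% were higher in SIRMu-1 and 31.9% in rMC-1 against Primary MC, and 30.5% were lower in SIRMu-1 than in rMC-1. The part of cell division in the differences below was not tested. The labels do not say which cultures share an animal, so p-values measure only the spread between these libraries.

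The 7 genes split into groups that moved apart. rMC-1 nearly lacked Prrx1 and held little Snai1 and Snai2, whereas its Twist1 and Zeb1 did not pass the test against Primary MC. In SIRMu-1 Twist2 alone averaged under 1 CPM, and Twist1 and Zeb1 were higher than in either other culture. Against Primary MC, 2 of the 7 were higher and 3 lower in SIRMu-1 at an adjusted p under 0.05 (edgeR quasi-likelihood test, Benjamini-Hochberg over all 11321 genes), where 46.1% of all genes were called, 21.7% higher and 24.4% lower. In rMC-1 against Primary MC, 0 were higher and 4 lower, where 70.8% of all genes were called, 31.9% higher and 38.9% lower. In SIRMu-1 against rMC-1, 5 were higher and 1 lower, where 63.2% of all genes were called, 32.7% higher and 30.5% lower. The share of members called lay above that of all genes in both SIRMu-1 comparisons and below it in rMC-1 against Primary MC. With 7 genes chosen by name, these shares are a description and were not tested. The median log2 fold change of the 7 genes was −0.75 in SIRMu-1 against Primary MC, −1.69 in rMC-1 against Primary MC and 1.38 in SIRMu-1 against rMC-1, beside −0.02, −0.15 and 0.03 over all genes tested. The comparisons share libraries and are not independent of each other.

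**Figure D1:**
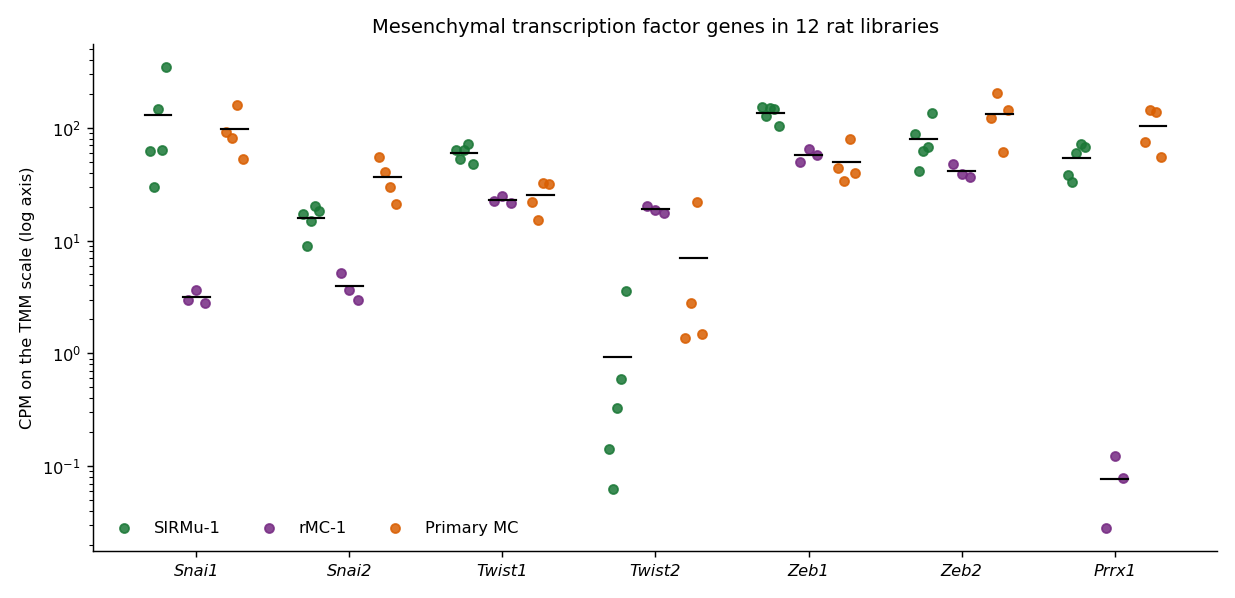
CPM on the TMM scale (log axis) of each gene in every library, with SIRMu-1 left, rMC-1 in the middle and Primary MC right within each gene; a bar marks the group mean. Prrx1 in rMC-1 lies between 0.0285 and 0.124 CPM, and Twist2 in SIRMu-1 between 0.0629 and 3.56 CPM.

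The 250 bases before the annotated start of 6 of the 7 genes were found in the RefSeq promoter table (assembly GRCr8; the deposited counts were made on rn6), and Snai2 was not among them. They are shown for Snai1 and Zeb1, whose products bind the searched motif, for Twist1, whose levels followed Zeb1 most closely among the 7, and for Prrx1, which rMC-1 nearly lacked. Capitals mark CACCTG or CAGGTG, which are each other's reverse complement, so that the pair covers both strands, and which are a subset of CANNTG, and all sequences run 5′ to 3′ on the strand of the gene.
Snai1, chr3:176667226-176667475 (+ strand): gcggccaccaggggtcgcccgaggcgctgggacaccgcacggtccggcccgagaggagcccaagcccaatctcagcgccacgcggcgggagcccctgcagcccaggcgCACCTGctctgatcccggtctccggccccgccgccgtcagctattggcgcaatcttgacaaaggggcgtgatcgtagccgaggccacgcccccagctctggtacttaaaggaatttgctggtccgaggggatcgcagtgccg
Zeb1, chr17:56810654-56810903 (- strand): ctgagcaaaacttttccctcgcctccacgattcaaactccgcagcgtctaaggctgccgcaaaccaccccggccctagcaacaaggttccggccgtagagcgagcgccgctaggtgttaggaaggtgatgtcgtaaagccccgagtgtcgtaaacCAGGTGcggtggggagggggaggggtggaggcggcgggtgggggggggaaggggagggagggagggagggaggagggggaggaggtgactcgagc
Twist1, chr6:56402059-56402308 (+ strand): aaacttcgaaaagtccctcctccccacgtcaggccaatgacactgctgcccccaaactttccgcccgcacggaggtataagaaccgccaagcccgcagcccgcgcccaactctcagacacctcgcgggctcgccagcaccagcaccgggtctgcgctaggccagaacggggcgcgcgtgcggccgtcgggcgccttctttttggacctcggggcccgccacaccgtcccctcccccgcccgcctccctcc
Prrx1, chr13:78204074-78204323 (- strand): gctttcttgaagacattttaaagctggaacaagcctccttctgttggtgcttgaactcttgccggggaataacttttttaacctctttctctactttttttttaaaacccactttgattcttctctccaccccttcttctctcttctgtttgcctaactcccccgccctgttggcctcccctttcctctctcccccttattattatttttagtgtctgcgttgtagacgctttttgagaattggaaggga
A CACCTG or CAGGTG was present in 2 of the 6 promoters, 142 bases before the start of Snai1 and 95 bases before that of Zeb1. Of all 33465 promoters in the table, 15.9% held it, and 17.9% of those with at least 60% GC. The looser CANNTG was in 3 of the 6, with CACATG 181 bases before Zeb2 as the third. It was in 65.5% of all promoters and in 52.2% of those with at least 60% GC. GC content was 69.6% in Snai1, 69.2% in Twist1, 67.2% in Twist2, 65.2% in Zeb1, 47.6% in Zeb2 and 43.2% in Prrx1, beside a median of 51.2% over all promoters. The number of CpG dinucleotides was 26, 27, 27, 18, 11 and 4 in that order. The median was 5 over all promoters and 22 over those with at least 60% GC. The Twist1 and Twist2 windows hold no CANNTG, and neither does that of Prrx1. A match is a description of the letters and shows no binding.

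Snai1, the zinc-finger repressor best known for silencing E-cadherin, was low in rMC-1 and variable elsewhere. It had 61.7, 29.5, 146, 63.4 and 344 CPM in SIRMu-1 replicates 1 to 5, then 2.99, 3.63 and 2.82 CPM in rMC-1 replicates 1 to 3, and 91.5, 81, 160 and 52.4 CPM in Primary MC replicates 1 to 4. Every rMC-1 library lay below every other library, while SIRMu-1 spanned the whole primary range and went beyond it on both sides. Snai1 was lower in rMC-1 than in Primary MC by a log2 fold change of −4.93 ± 0.84 (SE; adjusted p = 0.000266, edgeR), or 30.5-fold. In SIRMu-1 it was higher than in rMC-1 by 5.35 ± 0.85 on the log2 scale (adjusted p = 2e-04, edgeR). That size leaned on the cultures with drugs, and was 4.49 without SIRMu-1 replicate 5 (adjusted p = 7.05e-05, edgeR) and 3.95 with only the drug-free SIRMu-1 libraries (adjusted p = 7.81e-05, edgeR). SIRMu-1 against Primary MC gave 0.42 ± 0.59 (adjusted p = 0.587, edgeR), with means of 129 ± 128 CPM in SIRMu-1 and 96.1 ± 45.4 CPM in Primary MC (SD, n = 5 and 4). The sign of that value rested on SIRMu-1 replicate 5, the culture at passage 20, and was −0.37 without it. With only the SIRMu-1 libraries that had the drugs, as all primary cultures did, it was 1.36 and passed (adjusted p = 0.0423, edgeR).

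Snai2, the second Snail family repressor and a regulator of neural crest cells, differed between all 3 groups. Its level was 17.1, 8.91, 15, 20.4 and 18.4 CPM in SIRMu-1, 5.18, 3.67 and 2.98 CPM in rMC-1, and 54.7, 40.6, 29.9 and 21 CPM in Primary MC. No group overlapped another, with Primary MC highest and rMC-1 lowest, although the closest SIRMu-1 and primary libraries were only 20.4 and 21 CPM. The difference was −1.19 ± 0.30 on the log2 scale in SIRMu-1 against Primary MC (adjusted p = 0.00636, edgeR) and −3.21 ± 0.38 in rMC-1 against Primary MC (adjusted p = 1.73e-05, edgeR). SIRMu-1 exceeded rMC-1 by 2.02 ± 0.35 (adjusted p = 0.000409, edgeR). Against Primary MC, the SIRMu-1 call was lost when libraries sharing a code in their deposited file names were summed (−0.99, adjusted p = 0.11, edgeR). What that code stands for is not given, so the summed libraries are not known to be repeats of the same culture. The call was also lost with only the SIRMu-1 libraries that had the drugs (−1.12, adjusted p = 0.0564, edgeR).

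Zeb1, a zinc-finger and homeodomain repressor of epithelial genes, was highest in SIRMu-1. It had 152, 128, 148, 145 and 103 CPM in SIRMu-1, 49.4, 64.6 and 57.1 CPM in rMC-1, and 44, 33.7, 78.9 and 39.9 CPM in Primary MC. All 5 SIRMu-1 libraries lay above all others, and rMC-1 lay inside the primary range. Zeb1 rose by 1.46 ± 0.23 on the log2 scale in SIRMu-1 against Primary MC, or 2.76-fold (adjusted p = 0.000428, edgeR), and by 1.25 ± 0.25 in SIRMu-1 against rMC-1 (adjusted p = 0.00115, edgeR). The value for rMC-1 against Primary MC was 0.22 ± 0.25 (adjusted p = 0.459, edgeR). Primary MC replicate 3 held the highest primary value, and without it the rMC-1 difference was 0.54 with an adjusted p of 0.014 (edgeR).

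Zeb2, a repressor of the same family, was lowest in rMC-1. SIRMu-1 had 88, 41.6, 62.5, 66.8 and 135 CPM, rMC-1 had 47.5, 38.7 and 36.8 CPM, and Primary MC had 122, 204, 60.4 and 143 CPM. All 3 rMC-1 libraries lay below all 4 primary libraries, and SIRMu-1 overlapped both groups. Zeb2 fell in rMC-1 against Primary MC by 1.69 on the log2 scale (SE 0.42, adjusted p = 0.00371, edgeR). SIRMu-1 against Primary MC gave −0.75 ± 0.35 (adjusted p = 0.102, edgeR), and SIRMu-1 against rMC-1 gave 0.94 ± 0.40 (adjusted p = 0.0575, edgeR). Both of these depended on single libraries. Against Primary MC the SIRMu-1 value was −1.06 without SIRMu-1 replicate 5 (adjusted p = 0.0244) and −0.99 without Primary MC replicate 3 (adjusted p = 0.0246), both by edgeR. Against rMC-1 it was 1.1 without SIRMu-1 replicate 2 (adjusted p = 0.025, edgeR), and 0.94 without Primary MC replicate 2 (adjusted p = 0.0449, edgeR) or without Primary MC replicate 3 (adjusted p = 0.0277, edgeR), through the shared estimate of spread.

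Twist1, a basic helix-loop-helix factor of cranial and limb mesenchyme, resembled Zeb1. Its level was 63.6, 52.9, 62.8, 72.2 and 47.5 CPM in SIRMu-1, 22.6, 24.7 and 21.7 CPM in rMC-1, and 21.9, 15.2, 32.1 and 31.4 CPM in Primary MC. SIRMu-1 stood above both other groups without overlap, and rMC-1 lay within the primary range. Twist1 rose 2.38-fold in SIRMu-1 against Primary MC (log2 1.25 ± 0.21, adjusted p = 0.000625, edgeR) and 2.6-fold in SIRMu-1 against rMC-1 (log2 1.38 ± 0.23, adjusted p = 0.000317, edgeR). The value of rMC-1 against Primary MC was −0.13 ± 0.23 (adjusted p = 0.638, edgeR). Its sign turned to 0.01 without Primary MC replicate 3, and to 0.34 with library totals in place of TMM, a scaling that moved the median of all genes in that comparison to 0.32.

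Twist2, the second Twist factor, known from dermal and bone progenitors, was highest in rMC-1 and lowest in SIRMu-1. It had 0.142, 0.0629, 0.33, 0.592 and 3.56 CPM in SIRMu-1, from 4, 2, 8, 18 and 95 reads. rMC-1 had 20.2, 18.7 and 17.6 CPM, and Primary MC had 1.38, 2.81, 22.1 and 1.5 CPM. The rMC-1 libraries were uniformly high, 1 primary library reached their level, and 4 of 5 SIRMu-1 libraries lay below every primary library. Twist2 was lower in SIRMu-1 than in rMC-1 by a log2 fold change of −4.33 ± 1.16, or 20.1-fold (adjusted p = 0.00647, edgeR), with no overlap. That call was lost when libraries with the same file-name code were summed (−4.2, adjusted p = 0.0828, edgeR). Its size depended on SIRMu-1 replicate 5, and was −6.13 without it (adjusted p = 0.000612, edgeR) and −6.21 with only the drug-free SIRMu-1 libraries (adjusted p = 0.00272, edgeR). The difference was −2.89 ± 1.08 in SIRMu-1 against Primary MC (adjusted p = 0.046, edgeR) and 1.44 ± 1.14 in rMC-1 against Primary MC (adjusted p = 0.274, edgeR).

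Both Twist2 values against Primary MC depended on Primary MC replicate 3. Without it, Twist2 was −1.03 in SIRMu-1 (adjusted p = 0.385, edgeR) and 3.3 in rMC-1 (adjusted p = 0.0169, edgeR). The SIRMu-1 call was also lost without SIRMu-1 replicate 1, 2, 3 or 4 (log2 fold changes −2.62, −2.58, −2.68 and −2.77) and without any 1 rMC-1 library (−2.9 each). With only the SIRMu-1 libraries that had the drugs it was lost as well (−1.82, adjusted p = 0.316, edgeR). So it was with file-name codes summed (−2.99, adjusted p = 0.19), with only the 2 groups fitted (−2.91, adjusted p = 0.0845) and with library totals (−2.72, adjusted p = 0.0569), all by edgeR. Without SIRMu-1 replicate 5 the value was −4.62 (adjusted p = 0.00473, edgeR). Among primary libraries, replicate 3 also had the highest Snai1 and Zeb1 and the lowest Zeb2. Its summed CPM of 34 mesenchymal effector genes was the highest of the primary cultures (268000, against 128000 in replicate 4, the lowest), and that of 36 epithelial junction and keratin genes was the lowest (444, against 848 in replicate 4). The part of these genes in its Twist2 level was not tested.

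Prrx1, the homeodomain factor, showed the largest differences of the 7 genes in both comparisons that involve rMC-1. Its level was 38, 32.7, 59.6, 71.3 and 66.8 CPM in SIRMu-1. In rMC-1 it was 0.0285, 0.124 and 0.079 CPM, from 1, 6 and 3 reads. In Primary MC it was 74.9, 142, 138 and 54.5 CPM. Every rMC-1 library was near 0, and the lowest primary library lay inside the SIRMu-1 range. Prrx1 was lower in rMC-1 than in Primary MC by a log2 fold change of −10.23 ± 0.64 (adjusted p = 1.78e-07, edgeR), number 243 of 11321 genes by size. Counting all reads, the rMC-1 level was 1250-fold below that of Primary MC, with a 95% binomial interval of this ratio, Primary MC over rMC-1, of 682 to 2620 that covers counting error only. SIRMu-1 exceeded rMC-1 by 9.29 ± 0.62 (adjusted p = 3.89e-07, edgeR), with a ratio of 646 and an interval of 351 to 1350. Against Primary MC, SIRMu-1 was lower by a log2 fold change of −0.93 ± 0.32 (adjusted p = 0.0314, edgeR). That call was lost without SIRMu-1 replicate 1 (−0.83), SIRMu-1 replicate 2 (−0.8), Primary MC replicate 2 (−0.74) or Primary MC replicate 3 (−0.76). It was also lost with file-name codes summed (−0.84, adjusted p = 0.174, edgeR) and with only the SIRMu-1 libraries that had the drugs (−0.69, adjusted p = 0.21, edgeR).

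**Figure D2:**
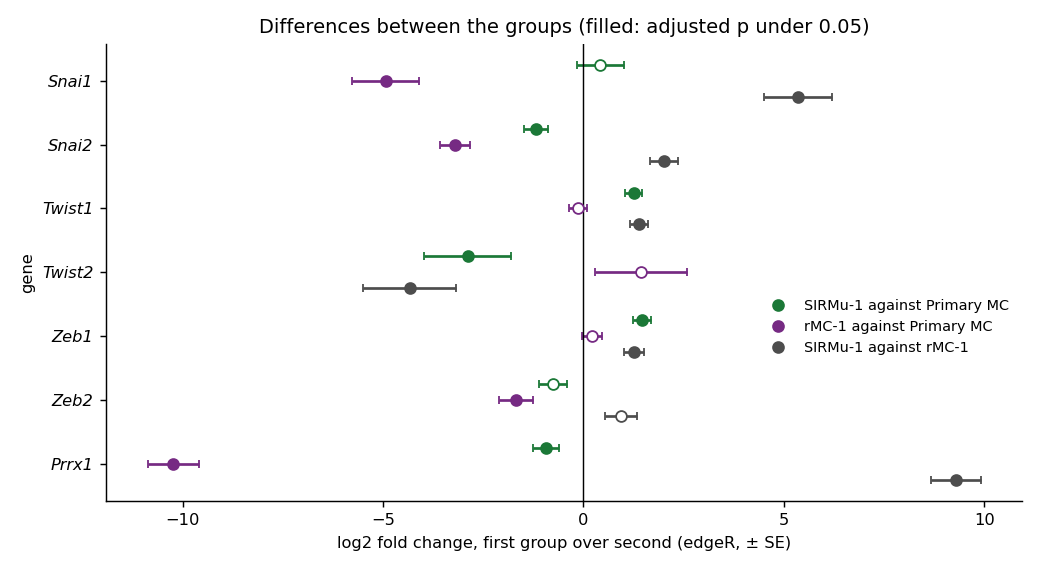
The log2 fold change (± SE, edgeR) of each gene in SIRMu-1 against Primary MC, rMC-1 against Primary MC and SIRMu-1 against rMC-1; filled points have an adjusted p under 0.05. The largest differences are those of Prrx1, −10.23 in rMC-1 against Primary MC and 9.29 in SIRMu-1 against rMC-1.

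In groups without overlap between libraries there were 3 of the 7 genes in SIRMu-1 against Primary MC, where 35.3% of all genes did not overlap, namely Snai2, Zeb1 and Twist1. In rMC-1 against Primary MC there were 4, where 70.9% of all genes did not overlap, namely Snai1, Snai2, Zeb2 and Prrx1. In SIRMu-1 against rMC-1 there were 6, where 63% did not overlap, all but Zeb2. The share of members without overlap was above that of all genes in both SIRMu-1 comparisons and below it in rMC-1 against Primary MC.

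Ratios within a library do not depend on how libraries are scaled, and they set the related genes against each other. The log2 ratio of Snai1 to Snai2 reads was 1.64 to 4.22 in SIRMu-1, −0.79 to −0.02 in rMC-1 and 0.74 to 2.42 in Primary MC, so the rMC-1 ratio lay below both other groups. The Twist1 to Twist2 ratio was 3.73 to 9.39 in SIRMu-1, 0.16 to 0.4 in rMC-1 and 0.54 to 4.37 in Primary MC. Its lowest primary value was that of replicate 3 and its lowest SIRMu-1 value that of replicate 5. The Zeb1 to Zeb2 ratio was −0.38 to 1.62 in SIRMu-1, 0.06 to 0.74 in rMC-1 and −2.6 to 0.38 in Primary MC, with the highest primary value again in replicate 3. These ratios are descriptions, and they compare the groups, not the levels of the 2 genes, since gene length enters each ratio equally in every library.

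**Figure D3:**
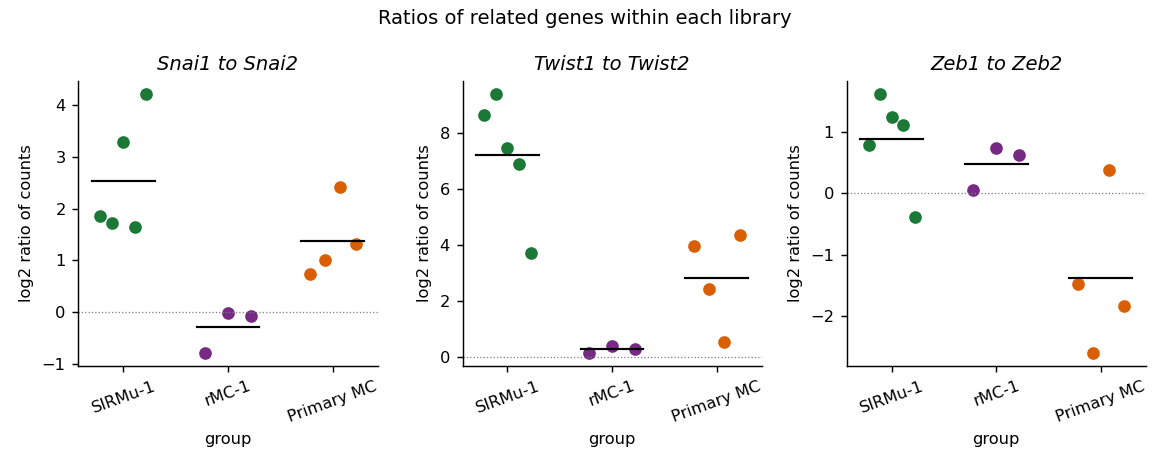
Log2 ratio of the read counts of each pair of related genes in every library, SIRMu-1 left, rMC-1 in the middle and Primary MC right, with the group mean as a bar. The rMC-1 libraries lie between −0.79 and 0.74 in all 3 pairs, and the Twist1 to Twist2 ratio of SIRMu-1 reaches 9.39.

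The summed CPM of the 7 genes was 294 to 718 in SIRMu-1, 139 to 154 in rMC-1 and 343 to 521 in Primary MC, so rMC-1 lay below all other libraries. Of the reads of the 7 genes, Snai1 took 10.1% to 47.9% in SIRMu-1, 2.02% to 2.35% in rMC-1 and 15.3% to 30.6% in Primary MC. Zeb1 took 14.4% to 43.6% in SIRMu-1, 33.4% to 41.9% in rMC-1 and 6.49% to 15.1% in Primary MC. Twist2 took at most 0.496% in SIRMu-1, 12.1% to 13.6% in rMC-1 and 0.336% to 4.25% in Primary MC. Prrx1 took 9.04% to 16.2% in SIRMu-1, at most 0.0802% in rMC-1 and 15.9% to 27.4% in Primary MC.

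Among the 5 SIRMu-1 cultures, replicates 3 and 5 had gentamicin and amphotericin B, at passages 11 and 20, and the others were at passages 6, 11 and 11 without them. Snai1 was 146 and 344 CPM with the drugs, against 61.7, 29.5 and 63.4 CPM without, and the groups did not overlap. The difference was 2.25 ± 0.48 on the log2 scale, with an unadjusted p of 0.000691 and an adjusted p of 0.986 over 11636 genes (edgeR), so it did not pass. It was 1.49 without SIRMu-1 replicate 5. By edgeR 0 genes in all, or 0%, were called in this comparison and 3.72% had an unadjusted p under 0.05, while DESeq2 called 4, Snai1 among them (adjusted p = 0.0276). Groups did not overlap in 15.8% of all genes and in 1 of the 7, Snai1. The other 6 genes had values between −0.19 (Twist1) and 2.86 (Twist2), none past the threshold. Twist2 was 0.33 and 3.56 CPM with the drugs, against 0.142, 0.0629 and 0.592 CPM without, and its value was 0.29 without SIRMu-1 replicate 5, 3.72 without replicate 3 and 4.22 without replicate 4. The culture at passage 20 had the highest Snai1, Zeb2 and Twist2 and the lowest Zeb1 and Twist1 of the 5. Its summed pericyte and smooth muscle markers were the lowest of the 5, at 7080 CPM, and their part in these levels was not tested. Drugs and the highest passage fall together in that culture, and their parts cannot be told apart. At passage 11, the only one with both conditions, Snai1 was 146 CPM in the culture with the drugs, against 29.5 and 63.4 CPM in the cultures without.

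**Figure D4:**
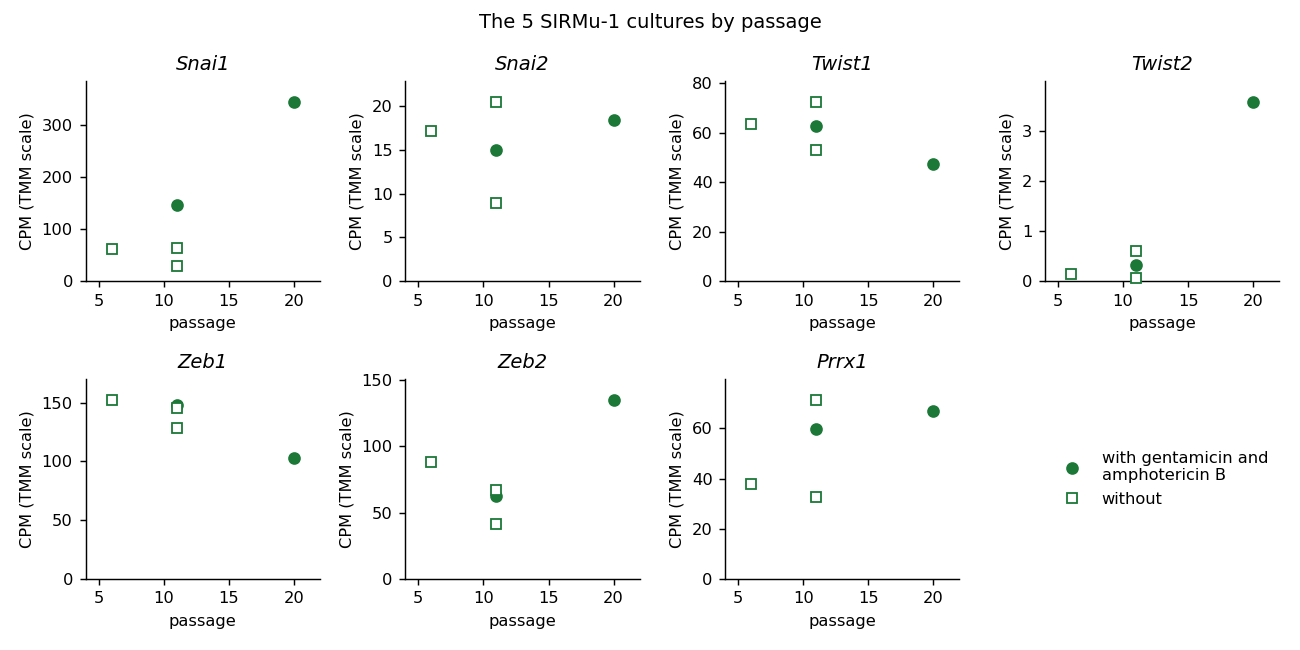
CPM of each gene in the 5 SIRMu-1 cultures by passage, with gentamicin and amphotericin B (filled circles) and without (open squares). Snai1 is 146 and 344 CPM in the cultures with the drugs and at most 63.4 CPM in those without.

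Among the partners of these factors, 2 E proteins ran in opposite directions. Tcf3, an E protein that pairs with Twist, averaged 136 CPM in SIRMu-1, 250 CPM in rMC-1 and 70.5 CPM in Primary MC. It rose in both lines against Primary MC, by 0.95 ± 0.14 in SIRMu-1 (adjusted p = 0.000313, edgeR) and 1.83 ± 0.16 in rMC-1 (adjusted p = 1.61e-06, edgeR). Tcf4, another E protein, ran the other way, with 35.3 CPM in SIRMu-1, 10.3 CPM in rMC-1 and 66.3 CPM in Primary MC, and it fell in both lines against Primary MC (log2 −0.91 and −2.68). The SIRMu-1 call of Tcf4 was lost with file-name codes summed (−0.87, adjusted p = 0.0513, edgeR). Ezh2, the histone methyltransferase that Snail can recruit, averaged 66.6 CPM in SIRMu-1, 274 CPM in rMC-1 and 10.7 CPM in Primary MC, and rose in both lines (log2 2.63 and 4.68). Among 20 partners and corepressors tested, 5 were higher and 3 lower in SIRMu-1 against Primary MC, and 9 were higher and 4 lower in rMC-1 against Primary MC (14 higher with library totals in place of TMM). Those 8 and 13 of 20 are no larger a share than the 46.1% and 70.8% of all genes called. Of the E protein inhibitors, Id4 fell in rMC-1 to 2.69 CPM, against 30.1 CPM in Primary MC (log2 −3.47, and −4.11 without rMC-1 replicate 2). Id1 did not pass in SIRMu-1 against Primary MC, rMC-1 against Primary MC or SIRMu-1 against rMC-1 (adjusted p = 0.0819, 0.0521 and 0.797, edgeR), but its value of 0.76 in rMC-1 against Primary MC was near the threshold and passed with DESeq2 (adjusted p = 0.0357) and, by edgeR, with library totals (1.23, adjusted p = 0.00676) and without rMC-1 replicate 1 (1.02) or 3 (0.94), Primary MC replicate 3 (0.87), or SIRMu-1 replicate 2 (0.76) or 5 (0.83). In SIRMu-1 against Primary MC its value of 0.66 passed without SIRMu-1 replicate 2 (0.8, adjusted p = 0.0308, edgeR). Among 16 genes acting on the stability of Snail and Twist proteins, 5 were higher and 3 lower in SIRMu-1 against Primary MC, and 7 higher and 5 lower in rMC-1, close to the same shares of all genes. The count of 5 higher in SIRMu-1 was 1 when libraries of the same file-name code were summed. Mdm2, a ubiquitin ligase, averaged 196 CPM in SIRMu-1, 92.4 CPM in rMC-1 and 404 CPM in Primary MC, and fell in both lines against Primary MC. Its SIRMu-1 value of −1.04 lost the call without SIRMu-1 replicate 3 (−0.97), SIRMu-1 replicate 4 (−0.97) or Primary MC replicate 4 (−0.64), and with file-name codes summed (−1.18, adjusted p = 0.0966, edgeR).

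Genes of the upstream TGF-beta pathway, a known inducer of these factors, were mostly lower in rMC-1. Of 16 genes of this pathway tested, 2 were higher and 10 lower in rMC-1 against Primary MC, where 31.9% of all genes were higher and 38.9% lower. The median was −0.96 beside −0.15 for all genes (−0.49 beside 0.32 with library totals). These counts do not separate genes that promote the pathway from genes that inhibit it, and its activity was not measured. Bambi averaged 1.65 CPM in rMC-1 and 60.7 CPM in Primary MC (log2 −5.2 ± 0.64, adjusted p = 2.1e-05, edgeR). In SIRMu-1 against Primary MC, 3 were higher and 5 lower, with a median of 0.11. Of all genes, 21.7% were higher and 24.4% lower there, with a median of −0.02. The ligand Tgfb2 averaged 498 CPM in SIRMu-1, 323 CPM in rMC-1 and 1010 CPM in Primary MC, and fell in both lines (log2 −1.03 and −1.65, adjusted p = 0.00121 and 5.69e-05, edgeR). The receptor Tgfbr2 had 25 CPM in rMC-1 and 83.6 CPM in Primary MC (log2 −1.74 ± 0.12, adjusted p = 4.15e-07, edgeR).

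Other mesenchymal transcription factors were also reduced in rMC-1. Of 35 tested among 41 in the files, 4 were higher and 24 lower in rMC-1 against Primary MC, with a median of −2.66, and 18 were higher and 7 lower in SIRMu-1 against rMC-1, with a median of 1.79. In SIRMu-1 against Primary MC, 4 were higher and 13 lower, with a median of −0.26. Of all genes, 31.9% were higher and 38.9% lower in rMC-1 against Primary MC. These shares were 32.7% and 30.5% in SIRMu-1 against rMC-1, and 21.7% and 24.4% in SIRMu-1 against Primary MC. The medians over all genes were −0.15, 0.03 and −0.02 in that order. The craniofacial mesenchyme factors Alx1 and Alx4 had 0 reads in rMC-1 and averaged 14.4 and 25.4 CPM in Primary MC, which makes them at least 546-fold and 1060-fold lower with a floor of 3 counts over the group. Primary MC replicate 3 held 1116 of the 1308 primary Alx1 reads, and without it Alx1 averaged 2.62 CPM in Primary MC and was at least 104-fold lower in rMC-1. Lmx1b, a dorsal limb and eye mesenchyme factor, had 0 reads in rMC-1 and 15.2 CPM in Primary MC, at least 623-fold lower, or 393-fold without Primary MC replicate 1. Foxc2, a forkhead factor of mesenchyme, rose in SIRMu-1 to 168 CPM, against 15.4 CPM in Primary MC (log2 3.45 ± 0.80, adjusted p = 0.00451, edgeR). Primary MC ranged from 2.41 to 48.6 CPM, and the value was 5.26 without Primary MC replicate 3 (adjusted p = 1.49e-05, edgeR). The call was lost with file-name codes summed (3.13, adjusted p = 0.0723, edgeR).

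The mesenchymal effector genes, such as matrix proteins and their proteases, were far lower in rMC-1. Of 34 tested, 0 were higher and 31 lower in rMC-1 against Primary MC (median −3.91), and 27 were higher and 0 lower in SIRMu-1 against rMC-1 (median 2.97). In SIRMu-1 against Primary MC, 2 were higher and 12 lower (median −0.44), and 5 were lower when libraries of the same file-name code were summed. Of all genes, 31.9% were higher and 38.9% lower in rMC-1 against Primary MC. These shares were 32.7% and 30.5% in SIRMu-1 against rMC-1, and 21.7% and 24.4% in SIRMu-1 against Primary MC. The summed CPM of these genes was 120000 to 172000 in SIRMu-1, 15000 to 18400 in rMC-1 and 128000 to 268000 in Primary MC. Fn1, the matrix protein fibronectin, averaged 35100 CPM in SIRMu-1, 1490 CPM in rMC-1 and 42700 CPM in Primary MC. It fell in rMC-1 against Primary MC by 4.84 on the log2 scale (adjusted p = 2.62e-07, edgeR), and SIRMu-1 against Primary MC gave −0.28 ± 0.23 (adjusted p = 0.336, edgeR). Vim, the intermediate filament vimentin, fell in both lines (log2 −0.81 in SIRMu-1 and −2.18 in rMC-1). Cdh2, the N-cadherin that mesenchymal cells carry, averaged 7.01 CPM in SIRMu-1, 3.09 CPM in rMC-1 and 109 CPM in Primary MC, and fell in both lines (log2 −3.95 and −5.16, adjusted p = 0.00888 and 0.00527, edgeR). Its SIRMu-1 value was −5.25 without SIRMu-1 replicate 4 and −3.2 without Primary MC replicate 4, and the call was lost with file-name codes summed (−3.8, adjusted p = 0.0595, edgeR). Its rMC-1 value was −7.21 without rMC-1 replicate 1, −4.56 without rMC-1 replicate 2 and −4.4 without Primary MC replicate 4. Mmp2, a matrix protease, averaged 0.642 CPM in rMC-1 and 2890 CPM in Primary MC, a log2 fold change of −12.16 ± 0.70 (adjusted p = 1.03e-07, edgeR), or −12.83 without rMC-1 replicate 1. Thy1, a fibroblast surface protein, was near 0 in both lines, at 0.0287 CPM in SIRMu-1 and 0.228 CPM in rMC-1, against 566 CPM in Primary MC.

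Epithelial genes, a class in which Snail and ZEB proteins have known targets, gave a mixed picture. The genes were listed by textbook role, and whether each is such a target was not tested. Cdh1, the E-cadherin gene, averaged 0.757 CPM in SIRMu-1, 0.233 CPM in rMC-1 and 1.19 CPM in Primary MC and did not pass in SIRMu-1 against Primary MC, rMC-1 against Primary MC or SIRMu-1 against rMC-1 (adjusted p = 0.614, 0.0993 and 0.214, edgeR). Its rMC-1 value of −2.36 against Primary MC was called with file-name codes summed (−2.6, adjusted p = 0.0389), with only the 2 groups fitted (−2.29, adjusted p = 0.0454) and without SIRMu-1 replicate 2 (−2.36, adjusted p = 0.0489), all by edgeR. Of 22 epithelial junction and keratin genes tested, among 36 in the files, 13 were higher and 3 lower in rMC-1 against Primary MC (median 1.48). That median ran from 0.14 to 1.94 over the alternative settings. In SIRMu-1 against rMC-1, 0 were higher and 12 lower (median −1.33, and from −1.78 to −0.5 over the alternatives). Without SIRMu-1 replicate 2, the number lower in rMC-1 was 5. In SIRMu-1 against Primary MC, 4 were higher and 6 lower (median −0.24), and without Primary MC replicate 2 or 3 the number higher was 2. Each list's medians were the same when genes with 0 reads in a group were set to their bound. For the median of 1.48, 0 tested genes had a bound, so nothing was replaced. Elsewhere a bound on the same side of a median cannot move it, so no conclusion is drawn from this. Cdh3, the P-cadherin gene, averaged 362 CPM in rMC-1 and 18 CPM in Primary MC (log2 4.34 ± 0.73, adjusted p = 0.000248, edgeR), and in SIRMu-1 it fell to 3.98 CPM (log2 −2.17). The SIRMu-1 value was −3.16 without SIRMu-1 replicate 5, and the call was lost with only the SIRMu-1 libraries that had the drugs (−1.43, adjusted p = 0.187, edgeR). Tjp3, a tight junction scaffold, averaged 21.4 CPM in rMC-1 and 0.201 CPM in Primary MC (log2 6.73 ± 0.55, adjusted p = 1.01e-06, edgeR). Spint2 went the other way, at 1.59 CPM in rMC-1 and 46 CPM in Primary MC (log2 −4.87 ± 0.96, adjusted p = 0.000744, edgeR). Its value was −6.06 without rMC-1 replicate 1. Lsr, a protein of tricellular junctions, averaged 29.1 CPM in rMC-1 and 1.89 CPM in Primary MC (log2 3.95 ± 0.63, adjusted p = 0.000152, edgeR), and the value was 4.74 without Primary MC replicate 4. Of 6 defining epithelial markers, 5 averaged under 1 CPM in SIRMu-1, 5 in rMC-1 and 4 in Primary MC. In rMC-1, Krt18 and Cldn3 were at 0 and Epcam had 1 read. Krt8 went the other way, at 66.2 CPM in rMC-1, 13.5 CPM in SIRMu-1 and 5.15 CPM in Primary MC.

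Of the 13 junction and keratin genes higher in rMC-1, 8 had a promoter in the RefSeq table. The windows of the 2 with the largest rise are shown with the searched motif, and capitals again mark CACCTG or CAGGTG (assembly GRCr8).
Tjp3, chr7:9084174-9084423 (+ strand): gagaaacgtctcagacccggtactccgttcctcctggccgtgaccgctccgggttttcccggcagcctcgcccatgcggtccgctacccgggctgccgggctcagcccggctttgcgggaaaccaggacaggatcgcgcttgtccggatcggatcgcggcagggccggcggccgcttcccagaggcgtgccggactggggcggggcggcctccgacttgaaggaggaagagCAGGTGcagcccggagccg
Lsr, chr1:95329355-95329604 (- strand): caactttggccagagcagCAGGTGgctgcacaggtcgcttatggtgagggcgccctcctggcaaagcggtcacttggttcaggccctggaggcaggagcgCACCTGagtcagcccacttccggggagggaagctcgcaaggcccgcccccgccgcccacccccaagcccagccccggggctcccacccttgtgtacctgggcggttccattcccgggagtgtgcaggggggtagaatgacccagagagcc
The motif lay 19 bases before the start of Tjp3, and at 232 and 150 bases before that of Lsr. It was present in 7 of the 8 promoters of genes higher in rMC-1, namely those of Tjp3, Lsr, Krt8, Cldn6, Rab25, Jup and Muc1, and in 21 of the 28 promoters found for the list as a whole, or 75%, beside 15.9% of all promoters. The other 14 of the 42 list genes were not in the table, so a share over the whole list is void, and these counts describe the promoters found and were not tested.

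Epithelial regulators opposed to these factors were also uneven. Grhl2, which represses Zeb1 in epithelia, averaged 13.9 CPM in rMC-1 and had 0 reads in Primary MC, at least 457-fold higher, and 8 reads in all of SIRMu-1. Ovol2 had 0 reads in every group. Esrp1, an epithelial splicing factor, had 0 reads in SIRMu-1 and Primary MC and averaged 0.0156 CPM in rMC-1. Cdx2 and Foxa2, gut and endoderm factors, averaged 94.6 and 53.4 CPM in rMC-1, with 0.0232 and 0.03 CPM in SIRMu-1 and 0.0192 and 0.0441 CPM in Primary MC. Of 10 epithelial transcription and splicing factors tested, among 19 in the files, 5 were higher and 1 lower in rMC-1 against Primary MC, and 2 were higher and 1 lower in SIRMu-1 against Primary MC. Of all genes, 31.9% were higher and 38.9% lower in rMC-1 against Primary MC, and 21.7% and 24.4% in SIRMu-1 against Primary MC.

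**Figure D5:**
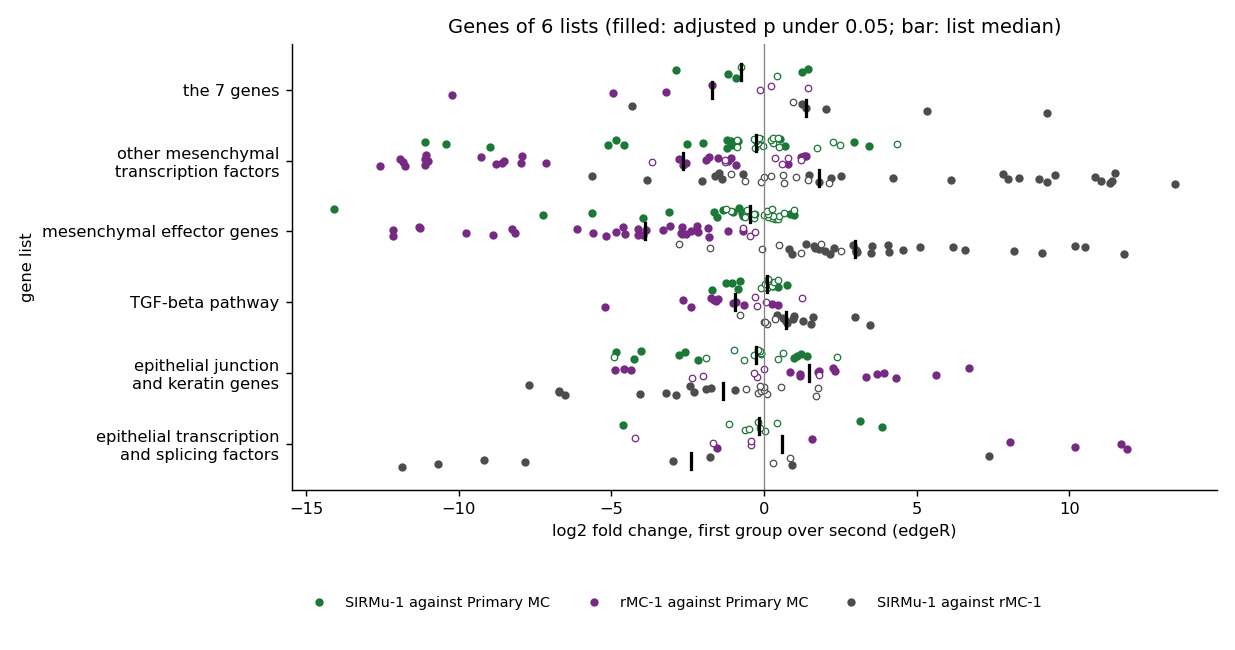
Fitted log2 fold changes (edgeR) of the genes of 6 lists in SIRMu-1 against Primary MC, rMC-1 against Primary MC and SIRMu-1 against rMC-1; filled points have an adjusted p under 0.05 and black bars mark list medians. The effector genes have a median of −3.91 in rMC-1 against Primary MC and the epithelial junction and keratin genes one of 1.48 (0.14 to 1.94 over the alternative settings).

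The genes whose pattern over the 12 libraries was most like that of each factor were ranked by the root mean square difference of mean-centred log2 CPM over all genes tested. For Zeb1, the second closest of all genes was Twist1 (0.27, beside a median of 0.95 over all genes), after LOC100910802 (0.22). For Twist1 the closest were Aig1 (0.23) and Rps20 (0.25), beside a median of 0.91. For Snai2 they were Cubn (0.31) and Mmp14 (0.32), beside 1.4, and for Zeb2 Agpat5 (0.34) and Itgb5 (0.37), beside 1. For Prrx1 they were Usp13 (0.49) and Cybrd1 (0.51), beside 3.91, and for Snai1 Man1a1 (0.56) and Arnt2 (0.67), beside 2.31. Twist2 had no gene closer than Socs2 (1.04), beside 2.63. Between the 7 genes themselves, the difference ran from 0.27 for Twist1 and Zeb1 to 5.79 for Prrx1 and Twist2. It was 1.28 for the related genes Zeb1 and Zeb2, 1.37 for Snai1 and Snai2 and 3.09 for Twist1 and Twist2. The pairs Snai2 and Zeb2 (0.79) and Twist1 and Zeb2 (1.15) were closer than any of these. All of these values share the 12 libraries and their group differences.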

How the data were processed

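Polyadenylated RNA of 12 cultures was sequenced on a NextSeq500 after a stranded KAPA library preparation, per the labels' protocols. The genome build was rn6 and the tools included STAR 2.5.3a, edgeR 3.18.1 and cutadapt 1.8.1, per the submitters' processing notes. The annotation, the counting tool and its strand setting were not given in the sources used here, so reads of overlapping antisense genes could not be told apart. The authors deposited whole-number read counts per gene, not normalized, and these counts were the input. Reads in no gene, 37% to 44.2% of each library, were left out.

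The members and lists were chosen with earlier results of these data known. edgeR 4.0.16 in R 4.3.3 (filterByExpr, TMM factors, glmQLFit and glmQLFTest) fitted all 12 libraries with 3 group means and 9 residual degrees of freedom. p-values were Benjamini-Hochberg adjusted over the 11321 genes that passed the filter, with calls made under 0.05. The drug comparison used a fit with 4 group means. On simulated counts for 11321 genes with 200 changed 4-fold (2 on the log2 scale), 83.5%, 87.5% and 88% were recovered in SIRMu-1 against Primary MC, rMC-1 against Primary MC and SIRMu-1 against rMC-1. Named genes other than the 7 were up to 4 per list and comparison with the largest called change at an average log2 CPM of at least 2, of which some are printed, and 11 genes set by name. Replicate numbers did not pair the samples. Alternatives were other scalings, DESeq2 1.42.0, other filters on low counts, fits of fewer groups, a replicate block, libraries summed by file-name code, drug-matched libraries, and each library left out.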

Additional observations from a re-analysis of the deposited data

Results flagged for a closer look

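In 14 sets of 4 or 5 libraries (each of the 7 genes in SIRMu-1 and in Primary MC), 1 library was checked for standing apart from the rest of its group. The check used CPM without a log scale. About 1 in 20 such sets is marked by chance if CPM within a group follows a normal distribution, which was not tested. Twist2 in SIRMu-1 replicate 5 was 3.56 CPM, and the next highest SIRMu-1 library had 0.592 CPM. That gap took up 0.849 of the group's range. Twist2 in Primary MC replicate 3 was 22.1 CPM, and the next highest primary library had 2.81 CPM. That gap took up 0.931 of the range. Both passed Dixon's critical value for their group size on the CPM scale, and no other set did. Whether either stands apart depends on that scale, and the check was not made on log2 values.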

How the results depend on the processing

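Of 431 alternative values for the 21 gene results between cell types, 391 kept their direction and side of the threshold, 22 lost a call, 13 gained one and 5 changed sign; 11 results kept both throughout. Values are log2 fold changes with the edgeR adjusted p unless DESeq2 is named, and where a cause is not stated it was not tested. Without one library, SIRMu-1 against Primary MC ranged over −0.37 to 0.78 for Snai1, −4.62 to −1.03 for Twist2, −1.06 to −0.47 for Zeb2 and −1.15 to −0.74 for Prrx1; rMC-1 against Primary MC over −0.31 to 0.01 for Twist1, 1.09 to 3.3 for Twist2 and 0.07 to 0.54 for Zeb1; and SIRMu-1 against rMC-1 over 0.57 to 1.1 for Zeb2. Alternatives for the other named genes were added after seeing the data. With library totals, rMC-1 against Primary MC was 0.34 for Twist1 and 0.71 (0.0133) for Zeb1, and Twist2 in SIRMu-1 against Primary MC −2.72 (0.0569). That scaling moved the median of all genes to 0.32 in rMC-1 against Primary MC and to −0.4 in SIRMu-1 against rMC-1, and the higher share of called genes to 61.9% and 30.8%, against 45.1% and 51.7% with TMM. With only 2 groups fitted, Twist2 in SIRMu-1 against Primary MC was −2.91 (0.0845) and Zeb2 in SIRMu-1 against rMC-1 0.94 (0.0336), and DESeq2 gave 0.91 (0.0326) for that Zeb2 comparison. With file-name codes summed, which leaves fewer samples, SIRMu-1 against Primary MC called 3173 genes in place of 5220, with Snai2 −0.99 (0.11), Twist2 −2.99 (0.19) and Prrx1 −0.84 (0.174), and Twist2 in SIRMu-1 against rMC-1 was −4.2 (0.0828). With only the drug-treated SIRMu-1 libraries, 3415 genes were called against Primary MC, with Snai1 1.36 (0.0423), Snai2 −1.12 (0.0564), Twist2 −1.82 (0.316) and Prrx1 −0.69 (0.21). Deviations of same-numbered libraries correlated between −0.063 and 0.098, so numbers do not pair samples. With the replicate block, Snai1 was −0.4, Zeb2 −0.98 (0.0492) and Prrx1 −0.98 (0.0574) in SIRMu-1 against Primary MC, and Twist1 0.02 and Twist2 2.4 (0.0439) in rMC-1 against Primary MC; it changed no other call of the 7 genes. It moved Twist2 to −4.01 in SIRMu-1 against Primary MC and −6.41 in SIRMu-1 against rMC-1, and Snai1 to 4.48 there. In the drug comparison DESeq2 called 4 genes and gave Snai1 2.25 (0.0276), and without one library edgeR called 0 to 2. There Snai1 ranged over 1.49 to 2.74, Twist2 over 0.29 to 4.22, Snai2 over −0.17 to 0.36, Zeb1 over −0.46 to 0.05 and Zeb2 over −0.08 to 1.04. Depth limits Prrx1 in rMC-1 and Twist2 in SIRMu-1, which rest on few reads.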
